A study of Homo sapiens with 14 samples.

Results

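The 38 genes examined here encode integrins and the proteins that tie them to the actin cytoskeleton at focal adhesions. They were listed by name and not by any measured value, though earlier results of these data were known when the list was made. They are 18 integrin alpha chains, 8 integrin beta chains and 12 cytoplasmic adhesion genes of 20163 protein-coding genes (GENCODE release 44 on hg19). They lie on 16 chromosomes, and their bodies run from 7.17 to 454 kb with a median of 76.0 kb. Peaks were assigned to a gene when they overlapped its body or the 10 kb on each side. A peak within 1 kb of the start of a protein-coding transcript of the gene was called a promoter peak. The windows of ITGAX and ITGAD overlap, and no others do.

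An integrin is a pair of an alpha and a beta chain that spans the membrane, binds the extracellular matrix outside the cell and recruits talin, kindlin and vinculin inside it. Focal adhesions assembled in this way carry force between matrix and actin, and signal through focal adhesion kinase and integrin-linked kinase. In hepatic stellate cells, the matrix-producing cells of the fibrotic liver, integrins bind collagen, fibronectin and latent transforming growth factor beta. JUN, which is phosphorylated in its activation domain by stress and growth signals, is a subunit of the transcription factor AP-1, whose dimers bind TGAGTCA and its reverse complement TGACTCA.

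Chromatin was profiled by CUT&Tag, in which an antibody brings a transposase to its target and the released fragments are sequenced, in wild-type LX-2, an immortalised human hepatic stellate cell line. All cells were cultured for 2 days, either on a soft matrix (2K in the labels) or on a stiff one (40K). The matrices were polyacrylamide hydrogels coated with fibronectin, itself an integrin ligand, and all cells came from the 1 line. Phosphorylated JUN (p-JUN), H3K4me3 (a mark of active promoters) and H3K27me3 (a repressive mark) had 2 libraries on each matrix, and H3K27ac, found at active promoters and at enhancers, had 1 merged list on each and so no replicate error. The p-JUN libraries grouped as stiff have TCP in their titles in place of 40K. The study uses that abbreviation for tissue culture plastic, so these cells may have been on plastic, and p-JUN on stiff and the marks on stiff may not come from the same surface.

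Depth is shown by the number of fragments at a summit, worked back from the p-values and folds in the lists. Its median over each whole list was 60 to 64 across the 4 p-JUN libraries and 27 (soft) and 26 (stiff) for H3K27ac. For H3K4me3 it was 120 and 141 on soft but 151 and 207 on stiff, and the stiff libraries were the deeper ones. The H3K27me3 lists held 19843 peaks in soft replicate 1 and 9228, 7104 and 6974 in the others, and their depth is unknown. Of 8 stellate cell markers 5 had an H3K4me3 promoter peak in every library. None of 4 hepatocyte and 4 leukocyte markers had one, and 1 of 3 endothelial and 1 of 4 cholangiocyte or other epithelial markers did.

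The sequences under the p-JUN peaks are shown first, because the AP-1 motif is what JUN recognises. A region is the union of peaks of 1 mark that share at least 1 bp across libraries. The first 9 sequences come from genes with the strongest p-JUN regions that were called in all 4 libraries and held the motif within 50 bp of a summit. The last pair comes from regions called on stiff alone. No region of these genes called on soft alone held the motif within 50 bp of a summit. Each is 101 bases of the plus strand of GRCh37 centred on the motif nearest to a summit, with every copy of TGAGTCA or TGACTCA in capitals.
TLN2 (chr15:62939789-62939889): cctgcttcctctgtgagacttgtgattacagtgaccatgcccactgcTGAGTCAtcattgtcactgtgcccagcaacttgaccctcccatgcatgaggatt
ITGA1 (chr5:52218334-52218434): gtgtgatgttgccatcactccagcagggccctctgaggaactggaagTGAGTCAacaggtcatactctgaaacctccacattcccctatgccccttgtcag
LIMS1 (chr2:109278739-109278839): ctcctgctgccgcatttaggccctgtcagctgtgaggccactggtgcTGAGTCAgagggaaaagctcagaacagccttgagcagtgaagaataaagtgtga
PARVA (chr11:12419712-12419812): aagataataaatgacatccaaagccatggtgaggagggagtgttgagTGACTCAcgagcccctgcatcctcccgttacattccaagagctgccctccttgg
ITGA2 (chr5:52315302-52315402): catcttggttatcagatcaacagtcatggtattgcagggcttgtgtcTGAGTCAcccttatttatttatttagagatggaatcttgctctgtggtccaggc
ITGB1 (chr10:33269540-33269640): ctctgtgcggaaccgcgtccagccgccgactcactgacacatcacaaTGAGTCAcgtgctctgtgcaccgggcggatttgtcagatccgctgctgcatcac
ITGAM (chr16:31276774-31276874): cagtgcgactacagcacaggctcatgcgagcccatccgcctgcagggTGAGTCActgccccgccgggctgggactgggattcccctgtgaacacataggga
ITGA6 (chr2:173306916-173307016): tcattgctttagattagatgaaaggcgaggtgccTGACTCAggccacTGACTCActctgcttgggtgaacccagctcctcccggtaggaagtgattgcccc
ITGA11 (chr15:68677012-68677112): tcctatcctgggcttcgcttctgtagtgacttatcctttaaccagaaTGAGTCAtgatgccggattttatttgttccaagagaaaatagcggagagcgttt
ITGB5 (chr3:124551977-124552077): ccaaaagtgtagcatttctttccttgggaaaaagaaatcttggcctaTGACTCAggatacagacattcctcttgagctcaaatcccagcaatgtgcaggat
TLN1 (chr9:35719367-35719467): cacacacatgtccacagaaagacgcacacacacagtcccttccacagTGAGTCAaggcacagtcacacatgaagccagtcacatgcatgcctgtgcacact
The ITGA6 sequence holds 2 copies of the motif and each of the others holds 1. In TLN2, which encodes talin 2, the motif lay in intron 4, 25 bp from the nearest summit. The ITGB1 sequence lay 22.5 kb upstream of the canonical start, 8 bp from a summit, and its region had the most fragments of those shown, at 615 and 604 on soft and 567 and 658 on stiff. None of these sequences lies at a promoter of its gene.

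Of the 143 p-JUN regions of these genes called in all 4 libraries, 54 (37.8%, 95% Wilson interval 30.2 to 45.9%) held the motif within 50 bp of a summit. The share over all 40433 such regions of the genome was 43.2%. At positions 1 kb downstream of the same summits the shares were 2.80% and 2.76%. Away from any protein-coding start, 45 of 107 regions (42.1%, interval 33.1 to 51.5%) held the motif, where 49.4% of all such regions did. At a start, 9 of 36 (25%, interval 13.8 to 41.1%) held it, where 15.4% did. Both genome shares lay inside the intervals of the adhesion genes, which cover counting error only.

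The promoters were then read mark by mark. A p-JUN promoter peak was called in all 4 libraries at 20 of the 38 genes (52.6%), where 37.5% of all protein-coding genes had one. Another 12 genes had none in any library, and 6 (ITGA2B, ITGA5, ITGA6, ITGB4, ITGB7 and ITGB8) had one in 1 to 3 libraries. No gene had a p-JUN promoter on soft alone or on stiff alone, calls that 0.913% and 0.253% of all genes had. For 17 of the 20 the peak lay at the canonical start. For ITGB2, ITGB5 and TLN2 the peak called in every library lay at another annotated start.

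**Figure D1:**
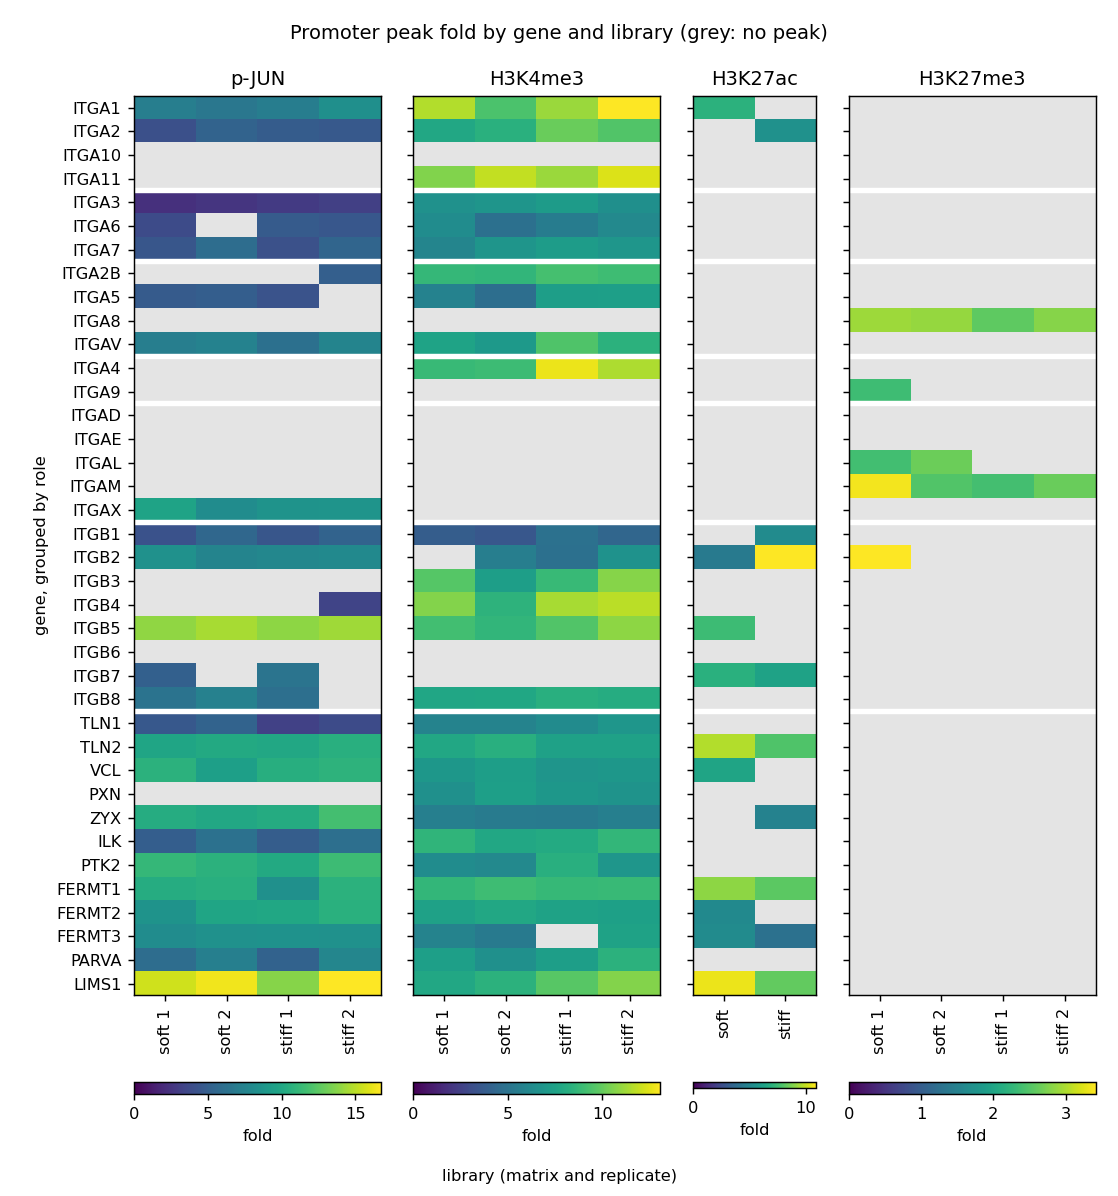
Fold of the highest promoter peak, as deposited, for each of the 38 genes (rows, grouped by role) in each of the 14 peak lists. Columns are ordered by mark and matrix, with a colour scale per mark that starts at 0. The fold is the ratio of summit to local background, except for H3K27me3, whose lists give no summit. Where a gene has several starts, the highest peak can lie at different starts in different lists, as for H3K27me3 at ITGAM. Grey cells had no promoter peak. LIMS1 and ITGB5 carry the highest p-JUN values, and the leukocyte alpha chains are grey for H3K4me3.

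The cytoplasmic genes held p-JUN most often, at 11 of 12 promoters. LIMS1, which encodes the adaptor PINCH1 that binds integrin-linked kinase, had a promoter fold of 15.5 and 16.4 on soft and 13.7 and 16.8 on stiff. Vinculin (VCL), which links talin to actin, had its higher promoter peak 1.27 kb inside the gene, which stood at 10.7 and 9.45 on soft and at 10.51 and 10.8 on stiff. Zyxin (ZYX), a LIM protein that moves to strained actin, stood at 10.4 and 10.02 on soft and at 10.3 and 11.8 on stiff. In all 3 genes the soft and stiff values overlapped. Talin 1 (TLN1), which binds the beta tail and starts integrin activation, was lower, at 4.63 and 5.35 on soft and at 3.22 and 3.85 on stiff, and the matrices did not overlap. The TLN1 peak also lies at the start of CREB3. Paxillin (PXN), the scaffold of the adhesion plaque, was the cytoplasmic gene with no p-JUN promoter peak.

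Among the beta chains p-JUN was called in every library at ITGB1, ITGB2 and ITGB5. ITGB1 encodes the chain shared by the collagen, laminin and fibronectin receptors, and its promoter fold was 4.24 and 5.59 on soft against 4.49 and 5.31 on stiff. ITGB5, which pairs with alpha V as a vitronectin receptor, was higher in every library, at 14.0 and 14.6 on soft and 13.9 and 14.3 on stiff. Its peak lay 8.50 kb inside the gene at a second start. ITGB2, the beta chain of the leukocyte integrins, had 8.48 and 7.55 on soft and 7.76 and 7.92 on stiff, at a start 8.02 kb upstream of the canonical one. The 3 promoters overlapped between matrices.

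Among the alpha chains the collagen receptors ITGA1 and ITGA2, the laminin receptors ITGA3 and ITGA7, and ITGAV had a p-JUN promoter in every library. ITGA1 stood at 7.16 and 6.65 on soft and at 7.13 and 8.32 on stiff. ITGA3 had the lowest fold of the 20, at 2.34 and 2.57 on soft and at 2.82 and 3.17 on stiff. It was not low in fragments, with 93 and 86 at the p-JUN summit on soft and 86 and 107 on stiff. The H3K4me3 peak of ITGA3 stood at percentile 92.2 to 95.4 of each list. ITGAX, the alpha chain of a complement receptor of myeloid cells, was the one of the 5 leukocyte alpha chains with p-JUN at its promoter. The peak was called in every library (fold 9.74 and 8.15 on soft, 8.57 and 8.70 on stiff), with no H3K4me3, H3K27ac or H3K27me3 promoter peak in any.

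H3K4me3 marked 26 of the 38 promoters in all 4 libraries (68.4%), against 61.7% of all protein-coding genes. It was called in no library at 10 genes, which were the 5 leukocyte alpha chains, ITGA8, ITGA9, ITGA10, ITGB6 and ITGB7. ITGB6 encodes the epithelial chain of the alpha V beta 6 receptor, ITGB7 a lymphocyte chain and ITGA9 and ITGA10 chains for tenascin and collagen. ITGB2 and FERMT3 (kindlin 3 of blood cells) had the mark in 3 libraries each. At ITGB2 the summit held 30 fragments in soft replicate 2 and 35 and 69 on stiff, with no call in soft replicate 1. At FERMT3 it held 25 and 25 on soft and 37 in stiff replicate 2. By comparison ITGA3 held 431 and 545 fragments on soft against 535 and 772 on stiff.

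Of the 26 genes with H3K4me3 in every library, 17 (65.4%) also had p-JUN in every library, where 57.4% of all genes with the mark did. H3K27ac was called on both matrices at 3 of the 26 (11.5%), TLN2, FERMT1 and LIMS1, where 33.1% of all H3K4me3 genes had it. It was in neither list at 16 of the 26 (61.5%), among them ITGA3, ITGA5, ITGAV, TLN1, PXN, ILK and PTK2, where 46.3% of such genes had none. No gene of the 26 had H3K27me3 in any library, against 4.53% of all genes with H3K4me3 in every library.

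H3K27me3 had a promoter peak in all 4 libraries at ITGA8 and ITGAM, 2 of the 38 genes (5.26%), where 2.39% of all genes were so called. The count was 1 with a promoter window of 500 bp, 3 with a window of 2 kb and 0 with a −log10 q of at least 2. At the canonical start ITGA8 alone had the mark in every library. At ITGA8, the alpha 8 chain that binds RGD peptides, the fold was 2.91 and 2.88 on soft against 2.57 and 2.79 on stiff, without overlap. At ITGAM, the alpha chain of the macrophage integrin Mac-1, the peak called in every library lay 70.9 kb inside the gene, in intron 28, at another annotated start. Its fold of 2.30 and 2.49 on soft overlapped that of 2.40 and 2.63 on stiff. At the canonical start of ITGAM a peak was called in soft replicate 1 alone, with a fold of 3.36. ITGAL, the alpha chain of the lymphocyte integrin LFA-1, was called on soft alone, at 2.39 and 2.65, as were 0.828% of all genes. ITGA9 and ITGB2 had a peak within 1 kb of a start in soft replicate 1 alone, which holds the longest list. In intron 1 of ITGA9, however, a region 1.67 kb past the start was called in all 4 libraries, with a fold of 2.36 and 2.43 on soft and of 2.86 and 2.63 on stiff. Its stiff values were the higher ones and did not overlap those on soft. At all windows together there were 29 and 12 H3K27me3 peaks on soft and 8 and 7 on stiff. The log2 ratio of the means was -1.45, and the exact permutation p was 0.33, the smallest that 2 libraries against 2 allow. The soft lists were also the longer ones. As a share of each list the peaks made up 0.146% and 0.130% on soft and 0.113% and 0.100% on stiff, a log2 ratio of -0.37 with the same exact permutation p of 0.33.

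Other genes of the adhesion pathway, 48 that are not integrins and include actinins, filamins, tensins and kinases of the adhesion, were read in the same way. H3K4me3 was in every library at 47 of them, where 61.7% of all genes had it, and PARVG, parvin of blood cells, had none. p-JUN was in every library at 33, such as ACTN1, ACTN4, ARHGEF7, BCAR1 and CAV1, where 37.5% of all genes had it. It was in none at 8, such as CSK, CSRP1, DOCK1, FLNA and PARVG, where 47.7% of all genes had none. H3K27ac was on both matrices at 14, on soft alone at 11 and on stiff alone at LIMD1 and TGFB1I1. The shares over all genes were 20.9%, 10.5% and 2.54%. ARHGEF7 was the only one with H3K27me3 in every library, a call that 2.39% of all genes had.

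Most p-JUN regions of the 38 genes lay away from promoters, as did most in the genome. Of 209 regions, 143 (68.4%) were called in all 4 libraries, against 65.8% of all 61411 regions. Of these 143, 26 lay at a promoter of the gene itself, 10 at the start of a neighbouring gene and 107 at neither. Of all 40433 regions called in all 4 libraries, 33069 lay away from any protein-coding start. In introns were 83 of the 107 (77.6%). The windows are gene bodies with 10 kb on each side, and no genome share for introns is given here. The genes held a median of 3.24 regions called in all 4 libraries per 100 kb, where all protein-coding genes held 1.88. At least 1 was present at 33 of 38 genes (86.8%) and at 66.3% of all genes. ITGA2B, ITGA4, ITGAL, ITGB4 and ITGB8 had none. A longer window has more room for a region, and the 38 genes were not matched to the others by length.

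**Figure D2:**
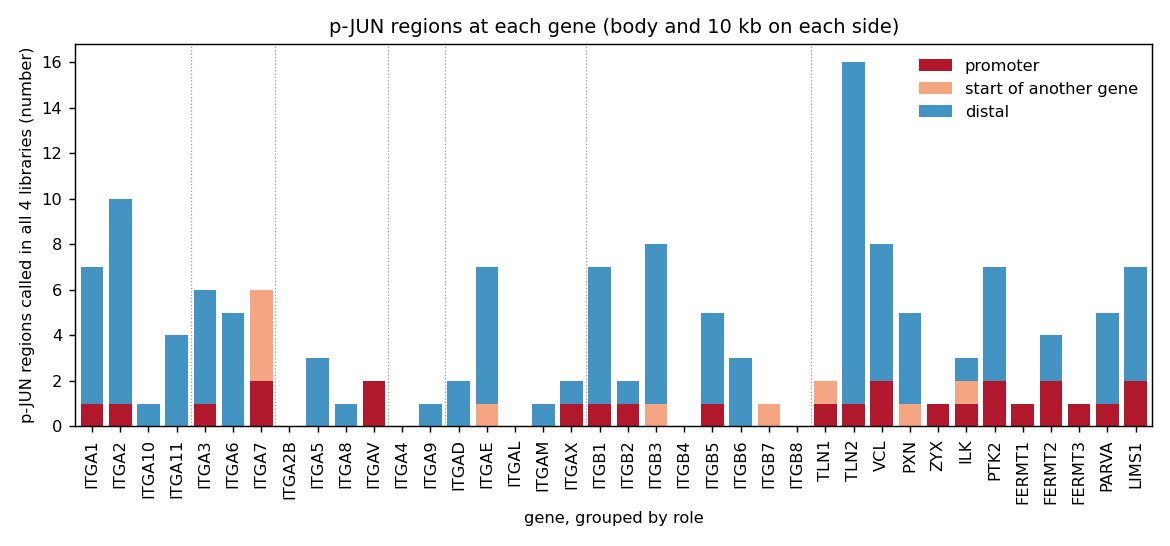
Number of p-JUN regions called in all 4 libraries at each gene body with 10 kb on each side, coloured by place (at a promoter of the gene, at the start of another gene, or distal), with genes grouped by role. TLN2 has the most, 16, of which 15 are distal, and 5 genes have none.

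TLN2 had the most regions, 16, along its 454 kb, followed by ITGA2 with 10 and by ITGB3 and VCL with 8 each. Per length ITGA7 was the densest, at 11.6 regions per 100 kb, with 4 of its 6 at starts of neighbouring genes. ILK followed at 11.04, ITGA3 at 11.01 and ITGB3 at 10.01. The 3 laminin-binding alpha chains together held 8.27 regions per 100 kb, and the 4 collagen-binding ones 4.30. The pair ITGA4 and ITGA9, receptors for VCAM-1 and tenascin, held 0.203. For 22 of the 33 genes the strongest p-JUN region was distal, for 17 of them in an intron, and for 7 it was the gene's own promoter. ITGAD and ITGAX share theirs, which lies between them.

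The strongest regions were read next. The LIMS1 promoter peak led with a mean fold of 15.6. Among the others was a region 47.5 kb upstream of the canonical start of ITGB1, at the upstream edge of the annotated gene body, with 401 and 402 fragments on soft against 325 and 414 on stiff. The region in intron 2 of ITGA5, the fibronectin receptor chain, held 720 and 687 fragments on soft against 631 and 769 on stiff, the most of all of these top regions. The matrices overlapped at both of the last regions.

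**Figure D3:**
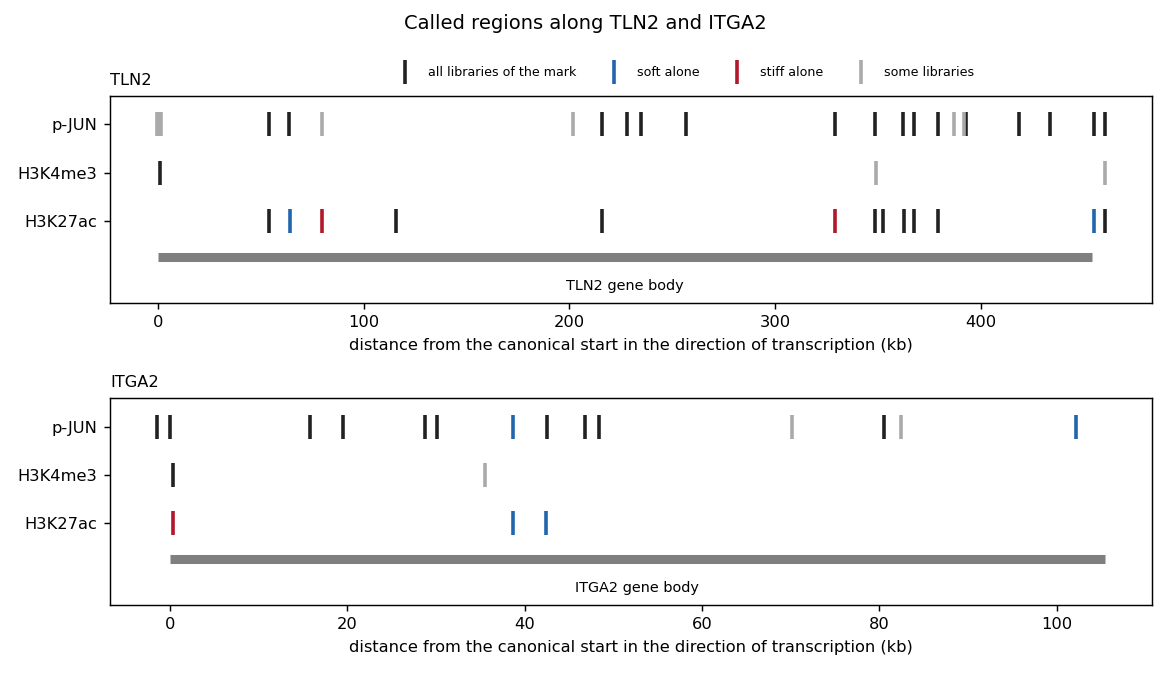
Called regions of p-JUN, H3K4me3 and H3K27ac along TLN2 and ITGA2, by distance in kb from the canonical start in the direction of transcription, with a tick at the summit of each region. Black ticks were called in all libraries of the mark, blue on soft alone, red on stiff alone and grey in some libraries. Most p-JUN ticks lie inside the genes, far from the H3K4me3 tick at the start.

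Of the 107 distal p-JUN regions called in all libraries, 29 (27.1%) overlapped H3K27ac on both matrices, where 20.3% of all distal regions did. A further 14 (13.1%) overlapped it on soft alone and 4 (3.74%) on stiff alone, against 10.6% and 3.34%. No H3K27ac peak was found at 60 (56.1%), against 65.8%. These are counts in 1 list per matrix.

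The number of peaks at the 38 genes differed between matrices by less than the spread between libraries for p-JUN and H3K4me3. The p-JUN lists held 182 and 169 on soft and 164 and 184 on stiff, so the matrices overlapped. Their means were 175.5 ± 9.19 (SD, n = 2) and 174 ± 14.1 (SD, n = 2), a log2 ratio of -0.01 (exact permutation test, p = 1). H3K4me3 peaks numbered 64 and 68 on soft and 65 and 69 on stiff (log2 ratio 0.02, exact permutation test, p = 0.667). With 2 libraries against 2 no such test can go below 0.33, and the p-values measure only the spread between these libraries.

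Fold was then compared region by region in limma, over all regions called in every library. None of the 143 p-JUN regions of these genes differed between matrices at an adjusted p of 0.05 (limma, Benjamini-Hochberg over 40433 regions), and none in the genome did (0%). At an unadjusted p of 0.05, 20 of the 143 (14.0%) passed, where 9.48% of all regions did. Of the 20, 13 were higher on stiff and 7 lower. The median log2 ratio of stiff over soft was 0.00 at these genes and -0.01 over all regions, and the middle 50% ran from -0.08 to 0.10. In fold every one of the 143 stayed within 1.5-fold, as did 40290 of all 40433 regions.

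The 5 regions with the lowest p were at ILK, TLN1, PARVA, TLN2 and ITGA11. The ILK region, 8.64 kb downstream of its start and at the start of TAF10, had a fold of 7.07 and 6.73 on soft and of 4.57 and 5.45 on stiff, a log2 ratio of -0.51 (SE 0.10, limma adjusted p = 0.381). The promoter of TLN1 had a log2 ratio of -0.55 (SE 0.11, limma adjusted p = 0.390). In intron 1 of PARVA, which encodes alpha parvin, fold was 7.67 and 7.92 on soft against 9.79 and 11.9 on stiff, and in intron 35 of TLN2 it was 4.11 and 4.48 on soft against 5.98 and 5.90 on stiff. Both log2 ratios were 0.43, with SE of 0.10 and 0.11 (limma adjusted p = 0.399 and 0.412). In intron 2 of ITGA11, a collagen receptor of stromal cells, the log2 ratio was -0.37 (SE 0.10, limma adjusted p = 0.417). In each of the 5 the matrices did not overlap, and none passed the adjusted threshold.

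**Figure D4:**
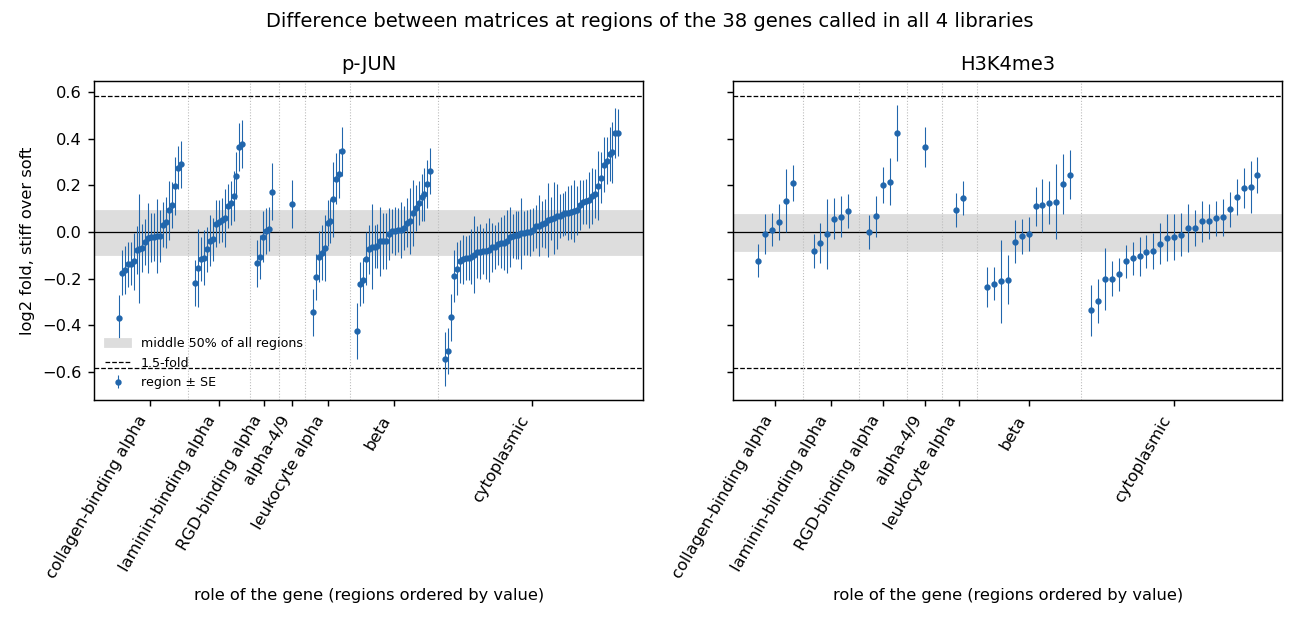
Log2 ratio of fold, stiff over soft, with its standard error from limma, for each p-JUN (left) and H3K4me3 (right) region of the 38 genes called in all 4 libraries, grouped by role and ordered by value. The grey band is the middle 50% of all regions in the genome and dashed lines mark 1.5-fold. All 143 and 58 points lie between the dashed lines.

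Fragments at the summit were tested as well. On that scale 6 of the 143 p-JUN regions lay beyond 1.5-fold, 3 of them lower on stiff. No genome share of regions beyond 1.5-fold in fragments is given here for either mark. The lowest adjusted p among the 143 belonged to the region in exon 3 of ITGAM, 5.50 kb inside the gene, whose sequence is shown above. It held 131 and 97 fragments on soft against 52 and 58 on stiff, while its fold was 11.9 and 12.2 on soft against 10.9 and 10.8 on stiff. On the scale of fragments its log2 ratio was -1.09 (SE 0.13, limma adjusted p = 0.0628), and on the scale of fold it was -0.19 (SE 0.10, adjusted p = 0.606). H3K27ac was called over it on soft alone, with 26 fragments. Neither scale passed the threshold.

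H3K4me3 was compared in the same way. None of the 58 regions of these genes passed an adjusted p of 0.05 (limma), nor did any of 16098 in the genome (0%), and 11 of the 58 (19.0%) passed an unadjusted p of 0.05, as did 10.2% of all. Of the 11, 5 were higher on stiff and 6 lower. In fold every one of the 58 lay within 1.5-fold, as did 16076 of all 16098 regions. The promoter of ITGA4, which pairs with beta 1 to bind VCAM-1 and fibronectin, had the lowest p, with fold 8.80 and 8.98 on soft and 12.7 and 11.5 on stiff (log2 ratio 0.36, SE 0.09, limma adjusted p = 0.371). The promoter of ITGA5 followed, at 5.77 and 4.70 on soft and 7.35 and 7.37 on stiff (log2 ratio 0.42, SE 0.12, limma adjusted p = 0.382). A second start of LIMS1, a region at the start of a neighbour of ITGB2, and the upstream promoter region of PARVA were next (limma adjusted p = 0.429 each), at log2 ratios of 0.24, -0.22 and -0.30. The LIMS1 ratio changed sign on the scale of fragments, where it was -0.11 (SE 0.09).

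On fragments 1 of the 58 H3K4me3 regions lay beyond 1.5-fold, the promoter of ITGA11. Its summit had 55 and 77 fragments on soft against 45 and 63 on stiff, values that overlap before each library is centred on its median. After centring the log2 ratio was -0.75 (SE 0.10, limma adjusted p = 0.0554), the lowest adjusted p of any region of these genes. In fold the same promoter stood at 10.6 and 11.9 on soft and at 11.1 and 12.4 on stiff, a log2 ratio of -0.01 (SE 0.09, limma adjusted p = 0.980). The medians used for centring were 134 and 166 fragments on soft against 171 and 248 on stiff.

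Regions called on 1 matrix alone were then listed. Of the 209 p-JUN regions 5 (2.39%) were called in both soft and no stiff library, against 1.74% of all regions, and 4 (1.91%) in both stiff and no soft library, against 2.75%. All 9 were distal. Those on soft alone lay in intron 2 of FERMT2 (kindlin 2), in intron 2 and exon 30 of ITGA2, in intron 13 of PTK2 (focal adhesion kinase) and in exon 22 of VCL. The ITGA2 intron 2 region held the most, with 73 and 49 fragments, and H3K27ac overlapped it and the PTK2 region on soft alone. Of all p-JUN regions called on soft alone, 9.29% overlapped H3K27ac on soft alone. Those on stiff alone lay in intron 2 of ITGA1, intron 5 of ITGB5, intron 15 of TLN1 and 6.01 kb upstream of ITGB7. The ITGB5 region held 53 and 53 fragments and the TLN1 region 28 and 22, and these are the pair with a motif among the sequences above. With lists of equal length, or with a −log10 q of at least 10, the count of p-JUN regions on stiff alone was 2 in place of 4.

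For H3K4me3, 2 of 75 regions were called on soft alone and 1 on stiff alone, where 1.25% and 1.77% of all regions were. The soft ones were in intron 1 of LIMS1, with 20 and 20 fragments, and at the start of TPM2 downstream of TLN1, with 72 and 83. The stiff one was in exon 2 of ITGA5, with 27 and 30. For H3K27me3, 3 of 36 regions were called on soft alone, against 7.54% of all, in ITGA9, ITGAD and ITGAL.

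H3K27ac has no replicate to judge a difference by, so its values are given without a test. Its lists held 71 peaks at these genes on soft and 57 on stiff, of 18238 and 13322 in all. Promoters were called on both matrices at 6 of the 38 genes (15.8%): ITGB2, ITGB7, TLN2, FERMT1, FERMT3 and LIMS1, where 20.9% of all genes were. At the canonical start 4 of the 38 were so called, ITGB7, FERMT1, FERMT3 and LIMS1, against 19.1% of genes with such a start. Soft alone had 4, ITGA1, ITGB5, VCL and FERMT2, where 10.5% of all genes were. The FERMT2 peak lay in intron 3, 32371 bp past the canonical start, at another annotated start. VCL also had a region 1325 bp past its canonical start, outside the promoter window. That region was called on both matrices, with 33 fragments on soft and 25 on stiff. Stiff alone had 3 (7.89%), ITGA2, ITGB1 and ZYX, where 2.54% of all genes were. The soft-only promoter peaks held 16 to 37 fragments. The stiff-only peaks at ITGA2, ITGB1 and ZYX held 14, 29 and 27. The ITGA1 peak also lies at the start of PELO, which begins beside it.

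By region, 42 of 86 H3K27ac regions were called in both lists, 29 on soft alone (33.7%, against 35.0% of all regions) and 15 on stiff alone (17.4%, against 10.9%). The members called on 1 list alone had a median of 28 fragments on soft and 23 on stiff. Regions on soft alone included introns of ITGA2, ITGA11, ITGB3, LIMS1 and PXN, and those on stiff alone introns of LIMS1, PTK2, PXN and TLN2. A region 4.84 kb upstream of ITGA3 had the most fragments of the soft-only ones, 75.

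Over the 42 regions called in both lists, the stiff summit held fewer fragments at 33 and more at 8. Their median log2 ratio was -0.27, and it was -0.21 over all 11044 regions called in both. ITGB2 had the highest ratio of the 42. A region at a start 7.12 kb upstream of its canonical start held 18 fragments on soft (95% exact Poisson interval 10.7 to 28.4) and 42 on stiff (30.3 to 56.8), a log2 ratio of 1.22 that only 3 of the 11044 regions exceeded. Next to it, 8.05 kb upstream, a peak with 92 fragments (74.2 to 113) was called on stiff alone and stood at percentile 99.7 of the stiff list. The p-JUN summit 8.02 kb upstream held 239 and 178 fragments on soft against 190 and 220 on stiff, which overlapped. A second start of LIMS1 stood at 70 fragments on soft and 86 on stiff, and a region upstream of ITGB6 at 60 and 30. The intervals cover counting error only, and PCR copies are not independent fragments.

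**Figure D5:**
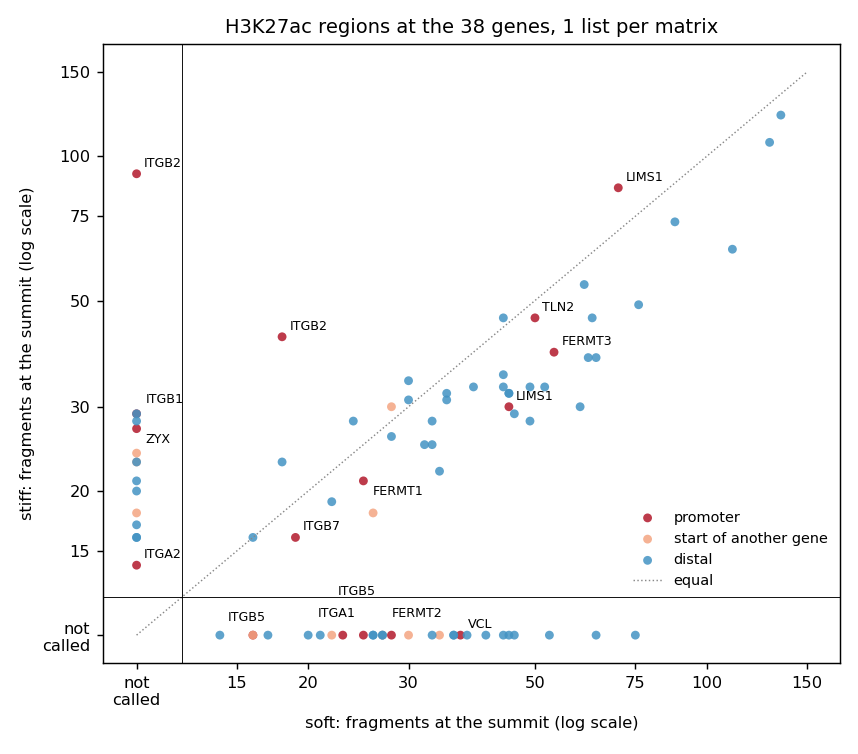
Fragments at the summit of each H3K27ac region of the 38 genes in the soft list (x axis) and the stiff list (y axis), both on log scales, coloured by place, with promoter regions named and regions called in 1 list alone set in the margins. The dotted line marks equal values. Most regions called in both lists lie under it, and the ITGB2 promoter region called in both lies above it, at 18 and 42 fragments.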

How the data were processed

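CUT&Tag peak lists of LX-2 cells were read as deposited, 14 in all. Per the labels and the methods, the authors trimmed reads with TrimGalore, aligned them to hg19 with Bowtie2, marked duplicates with Picard and obtained their peaks from MACS2, whose version, options and control are not given in the sources used here. For p-JUN, H3K4me3 and H3K27ac the deposited fold is the authors' ratio of summit to local background. The H3K27me3 lists give no summit, and their fold was used as deposited. The deposited −log10 p and −log10 q are MACS2's, and the deposited score is 10 times −log10 q cut to a whole number. The lowest −log10 q was 5.00 in the narrow lists and 1.31 for H3K27me3. The labels and the methods state different cell numbers.

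Fragments at a summit were recovered from fold and −log10 p as a Poisson tail, and were whole within a relative error of 0.0001 for at least 99.9% of p-JUN, H3K4me3 and H3K27ac peaks. Genes came from GENCODE release 44 mapped to GRCh37. Peaks of a mark sharing at least 1 bp were merged into regions. For regions called in all 4 libraries, log2 fold was centred on each library's median and compared in limma 3.58.1 (R 4.3.3), with Benjamini-Hochberg adjustment over all regions, after the code was checked on simulated data. Counts per library were compared by exact two-sided permutation tests. Other steps used Python 3.11.15, pandas 2.3.3, scipy 1.17.1 and pysam 0.24.0.

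The members, roles and lists were chosen with earlier results of these data known. Any member may be named. Named regions are those called on 1 matrix alone, the 5 lowest p of each fit and each gene's strongest p-JUN region, and other pathway genes are the first 5 of a class by alphabet. The sequences shown follow the motif-bearing regions of highest mean fold, and 1 region among them is not reported here. Alternatives were other thresholds, windows, list lengths, scalings, a replicate block and leaving out each library.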

Additional observations from a re-analysis of the deposited data

How the results depend on the processing

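Of 78 values under other settings, 63 kept their direction and size class, 13 moved and 2 changed sign. The log2 ratio of p-JUN peaks at the genes, -0.01, ran from -0.098 to 0.068 when 1 library was left out, at 0.04 without soft replicate 1 and 0.068 without stiff replicate 1. With the replicate number as a block it was -0.01, and limma with that block called 0 regions of either mark. At an unadjusted p under 0.05 that fit had 18 p-JUN regions of these genes, and 4157 of all 40433. For H3K4me3 it had 10, and 1540 of all 16098. Deviations of libraries with the same number correlated at 0.005 for p-JUN and -0.05 for H3K4me3, so the numbers were not taken as pairs. H3K27me3 promoters numbered 2, but 1 with a 500 bp window, 3 with a 2 kb window and 0 with a −log10 q of at least 2. Stiff-only p-JUN regions numbered 4, but 2 with a −log10 q of at least 10 and 2 with lists of equal length. Leaving out 1 library, which asks for a call in fewer libraries, gave 6 to 14 on stiff alone, and 8 to 14 on soft alone in place of 5. The motif share of 37.8% was 25.9% within 25 bp and 47.6% within 100 bp of a summit. In every limma setting with all 4 libraries no region of these genes passed. The lowest adjusted p was 0.0628 for p-JUN and 0.0554 for H3K4me3, both on fragments. On that scale 25 of the 143 p-JUN regions had an unadjusted p under 0.05, as did 9348 of all 40433. For H3K4me3 12 of the 58 did, as did 3106 of all 16098. On fragments, 10 H3K4me3 regions passed an adjusted p of 0.05 genome-wide.

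With 2 libraries on a matrix, and 1 list for H3K27ac, small differences could not be resolved, and H3K27me3 depth is unknown. H3K4me3 fragments follow depth, which was higher on stiff. Whether the p-JUN libraries called stiff were on plastic cannot be told apart from stiffness.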
